A study of Homo sapiens with 36 samples.

Results

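The RNA-seq profiles of A2780 cells selected for growth without serine and glycine (cis SSP -SG) were compared with those of platinum-sensitive A2780 cells in the same medium (wt -SG). A2780 is an established human ovarian cancer line. The comparison used the 3 libraries labelled wt -SG (7, 8 and 9) and the 3 labelled cis SSP -SG (31, 32 and 33), chosen by condition label alone, which are 6 of the 36 libraries in the series. The wt cells are the sensitive parental line, the cis cells are its cisplatin-resistant derivative, and the cis SSP cells are those that resumed growth when cis cells were kept without serine and glycine. Both groups were grown in medium lacking both amino acids, and neither received carboplatin. The cis SSP cells therefore differ from wt cells in their selection for platinum resistance as well as in their selection without serine, and this comparison cannot separate these histories. The study describes the 3 libraries of each condition as technical replicates. The error given here is therefore that between libraries, and separate cultures may have varied more. The cis SSP cells are also a single derived population.

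Serine can be taken up from the medium or made from the glycolytic intermediate 3-phosphoglycerate, through PHGDH, PSAT1 and PSPH in turn. Serine supplies glycine and one-carbon units for purines and thymidylate, and it is also used for sphingolipids and, through transsulfuration, for glutathione. When amino acids are scarce the transcription factor ATF4, whose amount is set largely at translation, raises genes of amino acid synthesis, transport and tRNA charging.

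The wt -SG libraries held 20441582, 18824863 and 15362999 counts on genes, and the cis SSP -SG libraries held 20062084, 14858200 and 18379196. Library 32 stood apart from the other 2 cis SSP -SG libraries in a way that followed transcript length. When genes were divided into 5 groups of nearly equal size by transcript length, its median log2 difference from libraries 31 and 33 was 0.44 in the group with the shortest transcripts (up to 1962 bases) and -0.55 in the group with the longest (from 6034 bases). Levels are given as CPM, counts scaled by library size with TMM normalisation. The summed CPM of 55 cytosolic ribosomal protein genes, which have short transcripts, were 37295, 67927 and 37199 in libraries 31, 32 and 33, and 34024 to 34228 in wt -SG. Counts of called genes and the values that library 32 moved are accordingly given with and without it. Leukocyte markers were near absent in all 6 libraries, with a summed level of 0.111 to 0.450 CPM over 6 genes. Epithelial markers were low too, with a summed level over 6 genes of 2.05 to 2.31 CPM in wt -SG and 12.2 to 18.5 CPM in cis SSP -SG. Of the 3 that passed the filter on low counts, KRT18 and KRT8 were higher and EPCAM lower in cis SSP -SG, with EPCAM between 1.09 and 1.42 CPM in wt -SG and between 0.78 and 1.0 in cis SSP -SG and KRT7 listed at 0 in all 6. The EPCAM call was lost without any 1 of libraries 7, 8, 9, 31 and 33 (-0.53 to -0.71), and that of KRT8 without library 7 (1.73) or 8 (1.63). Of 8 Müllerian and ovarian tumour markers only PAX2 passed this filter. In such bulk samples, fewer cells expressing a gene and less RNA per cell cannot be told apart.

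Of 14630 genes tested by edgeR, 6737 (46.0%) passed an adjusted p of 0.05, 3241 (22.2%) being higher and 3496 (23.9%) lower in cis SSP -SG. Without library 32, 10974 of 15027 genes (73.0%) passed, 5471 (36.4%) higher and 5503 (36.6%) lower. A total of 6717 genes were called in both fits, none of them (0) with opposite sign, and 20 were called with all 6 libraries and tested but not called without library 32. The median log2 fold change over all tested genes was 0.01, and -0.01 without library 32. The differences were often large: the median absolute log2 fold change of called genes was 1.12, and 3717 called genes differed by at least 1 on the log2 scale, 1572 higher and 2145 lower. In addition 59 genes had at most 3 counts in each wt -SG library and at least 100 in each cis SSP -SG library, and 156 genes showed the reverse. With this many genes called, the members of each gene list below are set against these shares.

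The serine synthesis enzymes were expressed at or above the wt -SG level in cis SSP -SG cells, with PSAT1 and PSPH higher and PHGDH not distinguishable. PHGDH, the first enzyme of the pathway (chr1:120191034-120286841, GRCh37), was at 522, 532 and 531 CPM in wt -SG libraries 7, 8 and 9 and at 544, 779.7 and 531 CPM in cis SSP -SG libraries 31, 32 and 33. Libraries 31 and 33 lay at the wt -SG level and only library 32 was clearly above it. Its log2 fold change was 0.18 ± 0.17 (SE, n = 3 per group, edgeR adjusted p = 0.417), and -0.01 without library 32 (edgeR adjusted p = 0.633).

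PSAT1, the aminotransferase of the pathway (chr9:80912041-80945009), was at 1059.6, 1078 and 1068 CPM in wt -SG and at 1569, 1554 and 1540.5 CPM in cis SSP -SG. The groups were well separated, and library 32 did not deviate. The log2 fold change was 0.50 ± 0.10 (SE, n = 3 per group, edgeR adjusted p = 0.00629) and was also 0.50 without library 32. PSPH, the phosphatase that releases serine (chr7:56078744-56119297), was at 76.8, 77.7 and 78.5 CPM in wt -SG and at 126, 149 and 125 CPM in cis SSP -SG, a log2 fold change of 0.74 ± 0.10 (edgeR adjusted p = 0.0016; 0.66 without library 32). Every cis SSP -SG library exceeded every wt -SG library. PSPH has close pseudogene copies, and how reads mapping to several places were counted is not given in the sources used here, so its level is uncertain.

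The neutral amino acid transporter SLC1A4, which carries serine (chr2:65215611-65250999), was higher in cis SSP -SG. Its level was 53.1, 48.6 and 45.6 CPM in wt -SG and 157, 122 and 148 CPM in cis SSP -SG, with no overlap. The log2 fold change was 1.49 ± 0.13 (SE, n = 3 per group, edgeR adjusted p = 0.000236; 1.59 without library 32). SLC1A5, a glutamine carrier that also accepts serine, was at 422, 431 and 424 CPM in wt -SG and at 592, 647 and 593 CPM in cis SSP -SG. The groups did not overlap and the log2 fold change was 0.48 ± 0.10 (edgeR adjusted p = 0.00782), but the call was lost without library 7 (0.47, edgeR adjusted p = 0.0506) and without library 9 (0.47, edgeR adjusted p = 0.0505).

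Over 13 tested serine and glycine transporters, 4 were higher and 2 lower in cis SSP -SG, with a median of 0.04 (7 and 2, median 0.22, without library 32). SFXN3, of the mitochondrial sideroflexin family, was among the former, at 3.34, 2.84 and 3.21 CPM against 13.4, 9.31 and 11.6 CPM (log2 fold change 1.83, edgeR adjusted p = 0.000321). Of 20 other amino acid transporters 5 were higher and 8 lower (10 and 9 without library 32). For both transporter lists the shares of all genes to set beside these counts are 22.2% higher and 23.9% lower (36.4% and 36.6% without library 32). The cationic amino acid transporter SLC7A3 was at 18.2, 16 and 17.5 CPM in wt -SG and at 0 in all cis SSP -SG libraries, at least 296-fold lower when a floor of 3 counts over the condition was used. SLC6A15, a sodium-coupled carrier of branched-chain amino acids and proline, had 348 counts in wt -SG and 1 in cis SSP -SG, a ratio of 326 (exact 95% interval 58.2 to 12926, counting error only).

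Across the 6 conditions without carboplatin, the same genes followed different orders. PSAT1 averaged 905 CPM in wt, 1069 in wt -SG, 733 in cis, 749 in cis -SG, 646 in cis SSP and 1554 in cis SSP -SG, with SDs of 6.87 to 17.4 over 3 libraries. Thus cis SSP cells had the lowest PSAT1 level of the 6 in complete medium and the highest without serine and glycine. PHGDH was lowest in cis (153 ± 4.55 CPM, SD) and cis -SG (208 ± 4.45), intermediate in cis SSP (313 ± 68.1), and higher in wt (473 ± 16), wt -SG (529 ± 5.28) and cis SSP -SG (618 ± 140.2), the range of the last condition (530.6 to 779.7) overlapping the wt -SG range (522 to 532). SLC1A4 was lowest in wt (25.1 ± 1.36 CPM) and highest in cis -SG (172 ± 3.9), above cis SSP -SG (142 ± 18.2). These levels are side by side as a description, since the conditions share libraries with the comparison.

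**Figure D1:**
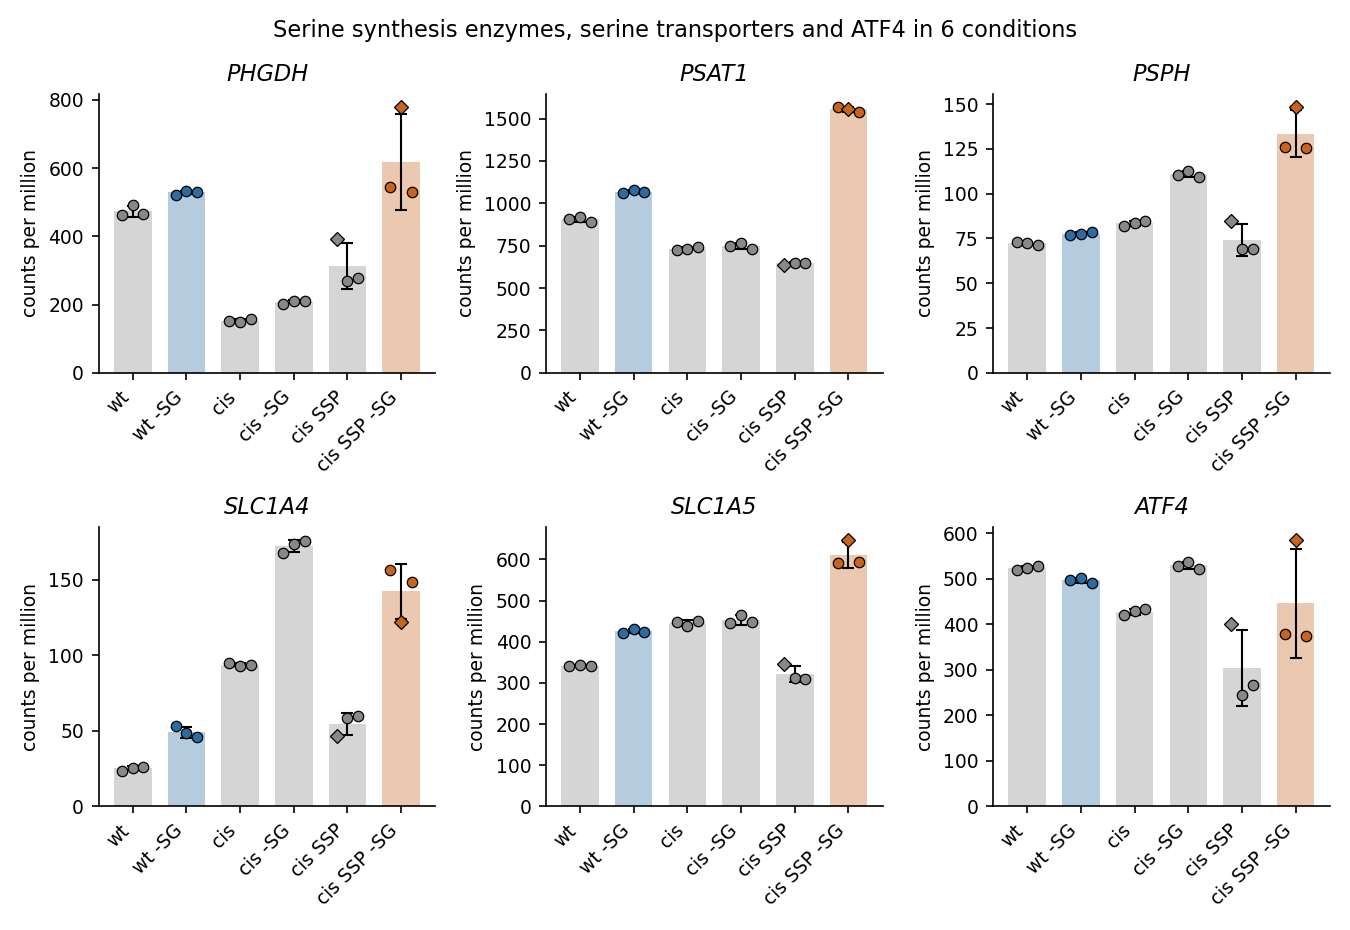
Levels of PHGDH, PSAT1, PSPH, SLC1A4, SLC1A5 and ATF4 in CPM (vertical axis from 0) in the 6 conditions without carboplatin; bars are means, error bars SDs, points single libraries (n = 3), wt -SG blue, cis SSP -SG orange, other conditions grey, and diamonds mark libraries 25 and 32. PSAT1 in cis SSP -SG lies between 1540.5 and 1569 CPM, above every other library shown, while PHGDH in cis SSP -SG exceeds wt -SG clearly in library 32 alone.

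Among genes of folate-bound one-carbon metabolism, more were called higher than lower in cis SSP -SG. Of 22 tested members of a list of folate and glycine cleavage genes, 10 were higher and 1 lower, with a median log2 fold change of 0.41 (14 and 5, median 0.38, without library 32). MTHFD2, the mitochondrial methylenetetrahydrofolate dehydrogenase, was at 381, 378 and 381 CPM in wt -SG and at 554, 562 and 557 CPM in cis SSP -SG, a log2 fold change of 0.51 ± 0.09 (SE, n = 3 per group, edgeR adjusted p = 0.00466; 0.51 without library 32). GLDC, the glycine decarboxylase of the cleavage system, was at 19.6, 20 and 19.3 CPM against 47.2, 42.8 and 49.4 CPM (log2 fold change 1.20 ± 0.10, edgeR adjusted p = 0.000162). Neither gene overlapped between the groups, which for GLDC was a condition of naming it. MTHFD2L, a relative of MTHFD2, was higher by 1.0 (edgeR adjusted p = 0.00142). SHMT2, which splits serine in mitochondria, was at 348, 349 and 338 CPM against 407, 514 and 408 CPM, and did not pass with all libraries (0.32, edgeR adjusted p = 0.0825; 0.20, 4.55e-06 without library 32).

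Purine and pyrimidine synthesis genes were higher in 11 and lower in 2 of 26 tested members (median 0.25; 18 and 6, median 0.21, without library 32). PRPS2, which makes the ribose donor of nucleotides, was at 68.9, 70.0 and 72.0 CPM in wt -SG and at 292, 277 and 295 CPM in cis SSP -SG, a log2 fold change of 1.99 ± 0.10 (SE, n = 3 per group, edgeR adjusted p = 1.32e-05). RRM2, the regulated subunit of ribonucleotide reductase, was at 159, 156 and 155 CPM against 376, 346 and 377 CPM (log2 fold change 1.18 ± 0.10, edgeR adjusted p = 0.000141). Both genes were named under a rule that required the groups to be separate. The levels of the 2 genes in the other conditions differed: RRM2 averaged 269 CPM in wt and 157 in wt -SG, but 358 in cis SSP and 366 in cis SSP -SG, whereas PRPS2 was already at 346 CPM in cis and 277 in cis SSP.

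ATF4 mRNA itself depended on library 32. It was at 498, 501 and 491 CPM in wt -SG and at 378, 585 and 374 CPM in cis SSP -SG, with libraries 31 and 33 below and library 32 above the wt -SG range. The log2 fold change was -0.20 ± 0.19 (SE, n = 3 per group, edgeR adjusted p = 0.423) with all libraries and -0.44 (edgeR adjusted p = 9.32e-11) without library 32. Its target genes moved in both directions. Of 31 tested members of the ATF4 target list, 8 were higher and 9 lower (median 0.15), and without library 32 the counts were 15 and 13 (median 0.14). With all 6 libraries their shares called higher or lower were near those of all genes. Without library 32 both shares were above those of all genes (36.4% higher and 36.6% lower).

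Among ATF4 targets called higher, CHMP4C, a subunit of the ESCRT-III membrane scission machinery, was at 13.6, 14.8 and 15 CPM in wt -SG and at 131, 187 and 129.5 CPM in cis SSP -SG (log2 fold change 3.32 ± 0.18, edgeR adjusted p = 2.73e-05). ATF5, a related transcription factor, was higher by 1.11 (edgeR adjusted p = 0.000876), the mitochondrial enzymes PCK2 and GPT2 by 0.85 and 0.82 (edgeR adjusted p = 0.00518 and 0.000508). CHAC1, which degrades glutathione, was higher by 0.52 (edgeR adjusted p = 0.0411), and this call was lost without any 1 of libraries 7 (0.50), 8 (0.51) and 9 (0.55).

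Several stress-response targets of ATF4 were lower. FGF21, a secreted stress hormone, was at 10.8, 11.9 and 11.4 CPM in wt -SG and at 3.31, 3.72 and 2.73 CPM in cis SSP -SG (log2 fold change -1.85 ± 0.14, edgeR adjusted p = 0.000112). The growth factor GDF15 was at 63.5, 82.5 and 81.8 CPM against 20.6, 40.1 and 20.3 CPM (-1.54, edgeR adjusted p = 0.00608; -1.92 without library 32). The transcription factor ATF3 (-1.19, edgeR adjusted p = 0.0011) and the secreted stanniocalcin STC2 (-0.69, edgeR adjusted p = 0.00104) were lower too, with no overlap of the groups. DDIT3, the transcription factor also called CHOP, was lower (-0.82, edgeR adjusted p = 0.0129), but the call was lost without library 7 (-0.82, 0.0502) or 9 (-0.80, 0.0521). ASNS, asparagine synthetase, was at 482, 475 and 477 CPM against 379, 506 and 378 CPM and did not pass (-0.23, edgeR adjusted p = 0.231; -0.37, 8.77e-10 without library 32).

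The letters TGATGNAA, which match the composite C/EBP-ATF response element, were searched on both strands in RefSeq promoters (GRCh38.p14, 250 bases before to 50 after the gene start), the table differing in build from the counts. They occurred in 999 of 27195 promoters (3.67%), in 5 of 24 of the ATF4 targets (20.8%), in 0 of 2 serine synthesis genes and in 1 of 18 folate genes (5.56%). Of the 5 ATF4 targets with a match, 1 was called higher and 2 lower in cis SSP -SG. The 250 bases before the start of 3 of them follow, with the match in capitals, because these targets differed in opposite directions or not at all: ASNS was not called, CHAC1 was higher and FGF21 lower.
ASNS chr7:97872409-97872658 minus strand: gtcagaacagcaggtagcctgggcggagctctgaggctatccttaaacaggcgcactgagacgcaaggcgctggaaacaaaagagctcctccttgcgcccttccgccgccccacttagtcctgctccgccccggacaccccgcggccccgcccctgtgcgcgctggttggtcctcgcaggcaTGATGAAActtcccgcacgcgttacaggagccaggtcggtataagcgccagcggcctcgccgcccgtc
CHAC1 chr15:40953221-40953470 plus strand: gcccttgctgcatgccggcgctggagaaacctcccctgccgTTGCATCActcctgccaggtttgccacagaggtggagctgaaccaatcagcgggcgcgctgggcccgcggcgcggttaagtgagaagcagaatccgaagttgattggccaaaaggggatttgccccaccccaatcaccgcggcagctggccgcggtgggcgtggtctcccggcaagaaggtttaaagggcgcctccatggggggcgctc
FGF21 chr19:48755274-48755523 plus strand: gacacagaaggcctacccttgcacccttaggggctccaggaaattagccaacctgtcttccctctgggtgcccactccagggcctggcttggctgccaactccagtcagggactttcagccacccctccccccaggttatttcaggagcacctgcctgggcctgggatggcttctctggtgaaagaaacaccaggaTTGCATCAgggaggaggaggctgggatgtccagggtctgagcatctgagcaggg
The match reads TGATGAAA in ASNS and, on the opposite strand, as TTGCATCA in both CHAC1 and FGF21, so the same 8 letters stand before a gene called higher and a gene called lower. A match is a description of the sequence and not of binding.

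Whether the difference between the lines depended on the medium was tested as the change on withdrawal of serine and glycine in cis SSP cells minus that in wt cells, over 12 libraries. Of 15202 genes tested by edgeR, 102 (0.671%) passed, 54 (0.355%) with a more positive and 48 (0.316%) with a more negative change in cis SSP cells, and 1702 had an unadjusted p under 0.05. Library 25 of cis SSP in complete medium also stood apart, with a limma voom sample weight of 0.0408. Library 32 had 0.0399 in this fit, and the others 1.33 to 2.32. Without both, 4213 of 15433 genes passed (2389 and 1824), of which 318 differed by at least 1 on the log2 scale. The number called was fragile. It fell to between 12 and 39 when any 1 wt library, any 1 wt -SG library or library 26, 27, 31 or 33 was left out, and rose to 198 without library 25 and 178 without library 32.

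Several ATF4 targets and tRNA synthetases had a more positive change in cis SSP cells than in wt cells. Of 31 ATF4 targets tested, 7 passed with a more positive change and 0 with a more negative one (median 0.52, against 0.01 for all genes), and without libraries 25 and 32 the counts were 23 and 2 (median 0.62). CHAC1 averaged 54 CPM in wt, 51.4 in wt -SG, 26.1 in cis SSP and 76.2 in cis SSP -SG, an interaction of 1.60 ± 0.25 on the log2 scale (SE, edgeR adjusted p = 0.0281; 1.62 without libraries 25 and 32). STC2 averaged 139, 200.2, 40 and 128 CPM in the same order (interaction 1.14, edgeR adjusted p = 0.00106). ATF3 averaged 21.6, 16.6, 2.1 and 7.47 CPM (2.18, edgeR adjusted p = 0.0021). Both STC2 and ATF3 therefore changed more in cis SSP cells while staying below the wt -SG level. The lipoprotein receptor VLDLR (1.23), the amino acid exchanger subunit SLC7A5 (0.89), the transcription factor JDP2 (0.71) and GPT2 (0.66) also passed, with edgeR adjusted p between 0.0021 and 0.0487. These genes, other than CHAC1, were chosen after their values were seen. Of 20 cytosolic aminoacyl-tRNA synthetases 5 passed, all with a more positive change, namely CARS1, GARS1, MARS1, TARS1 and WARS1 at 0.62 to 0.74, and without libraries 25 and 32 the counts were 18 and 1.

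**Figure D2:**
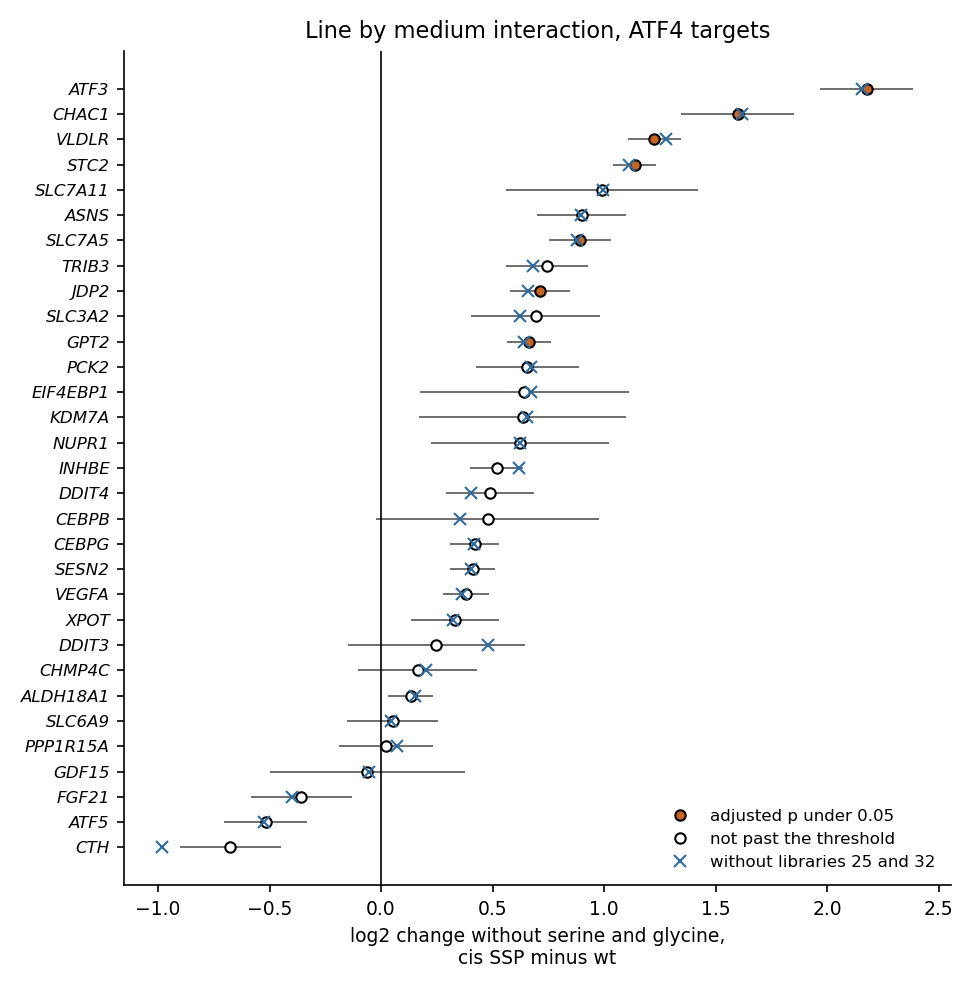
Interaction of line and medium for 31 ATF4 targets (horizontal axis, log2 change on withdrawal of serine and glycine in cis SSP minus that in wt; points with SE bars, filled where the edgeR adjusted p is under 0.05, crosses the value without libraries 25 and 32). The 7 filled points lie between 0.66 (GPT2) and 2.18 (ATF3), and GDF15, FGF21, ATF5 and CTH lie below 0 without passing.

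The serine synthesis genes had positive interaction values, of which only that of PSAT1 passed with all libraries. PSAT1 had 1.01 ± 0.11 (SE, edgeR adjusted p = 0.00291), PHGDH 0.80 ± 0.25 (edgeR adjusted p = 0.209), and PSPH 0.72 ± 0.14 (edgeR adjusted p = 0.0538). Without libraries 25 and 32 all 3 passed, at 1.0, 0.79 and 0.75. MTHFD2 also passed, at 0.61 ± 0.10 (edgeR adjusted p = 0.032), its level going from 299.5 to 380.0 CPM in wt and from 284 to 558 CPM in cis SSP cells. The values for SLC1A5 (0.58, edgeR adjusted p = 0.0538), SLC1A4 (0.39, 0.445), ASNS (0.90, 0.0797), ATF4 (0.61, 0.49), SHMT2 (0.30, 0.68) and DDIT3 (0.25, 0.999) did not pass with all libraries. Without libraries 25 and 32 these 6 genes passed too, at 0.59, 0.38, 0.90, 0.61, 0.35 and 0.48 (edgeR adjusted p of 3.99e-16 to 0.0241).

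Among replication and mitotic genes, more were called higher than lower in cis SSP -SG. Of 32 tested DNA replication and S phase genes 19 were higher and 1 lower (median 0.44; 25 and 3, median 0.36, without library 32). CCNE2, a cyclin of S phase entry, was at 2.21, 2.79 and 2.51 CPM in wt -SG and at 11.5, 7.52 and 11.1 CPM in cis SSP -SG (log2 fold change 1.97 ± 0.21, edgeR adjusted p = 0.000526). The transcription factor E2F2 was at 19.8, 21.6 and 21.7 CPM against 78.0, 69.3 and 80.6 CPM (1.81 ± 0.11, edgeR adjusted p = 3.47e-05). In both genes all cis SSP -SG libraries were higher, as the rule for naming them required. RFC3, a clamp loader subunit on chromosome 13, was the 1 member called lower (-0.46, edgeR adjusted p = 0.006). Of 28 G2/M genes 9 were higher and 0 lower (median 0.30), while without library 32 the counts were 19 and 4 (median 0.32). HMMR, a spindle-associated protein, was at 40.9, 38.6 and 37.9 CPM against 90.1, 71.5 and 85.5 CPM (1.03 ± 0.12, edgeR adjusted p = 0.000697).

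In contrast, targets of p53 were more often lower, in 13 of 29 tested members against 5 higher (median -0.39; 20 and 7, median -0.35, without library 32). CDKN1A, which encodes the p21 inhibitor of cyclin-dependent kinases, was at 129.9, 131 and 133 CPM in wt -SG and at 45.3, 56.2 and 43.0 CPM in cis SSP -SG, with no overlap (log2 fold change -1.49 ± 0.13, edgeR adjusted p = 0.00017). TP53INP1, a stress-induced nuclear protein, had 2596 counts in wt -SG and 2 in cis SSP -SG, a ratio of 1217 (exact 95% interval 337 to 10056, counting error only). Some members went the other way. PMAIP1, the BH3-only protein NOXA, was at 0.982, 1.32 and 1.09 CPM against 30.8, 33.8 and 32.9 CPM (4.79 ± 0.15, edgeR adjusted p = 2.86e-06), and the kinase PLK2 at 10.8, 9.47 and 9.9 CPM against 83.6, 79.8 and 78.1 CPM (2.95 ± 0.11, edgeR adjusted p = 5.07e-06). Over the BCL2 family as a whole 6 of 14 genes were higher and 3 lower (7 and 4 without library 32).

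Cholesterol synthesis was among the lists with the most members lower. Of 24 tested genes 17 were lower and 1 higher in cis SSP -SG (median -0.86; 20 and 1, median -0.98, without library 32), and their summed level was 3072 to 3092 CPM in wt -SG and 1709 to 1734 CPM in cis SSP -SG. STARD4, a cytosolic sterol carrier, was at 208, 199.9 and 207 CPM against 26.4, 19.1 and 23.6 CPM (log2 fold change -3.20 ± 0.15, edgeR adjusted p = 1.38e-05). MSMO1, a sterol methyl oxidase, was at 102, 102 and 94.1 CPM against 27.4, 31.6 and 28.2 CPM (-1.82 ± 0.10, edgeR adjusted p = 2.72e-05). The groups were separate in both cases, as the rule for naming these genes required.

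Other genes of the pathway were lower as well. HMGCS1, an early enzyme of the pathway, was at 184, 183 and 186 CPM in wt -SG and at 68.7, 46.9 and 61.1 CPM in cis SSP -SG, with no overlap (log2 fold change -1.69 ± 0.16, edgeR adjusted p = 0.000276). SREBF2, the transcription factor that drives the pathway, was itself lower (-1.04, edgeR adjusted p = 0.00129). PMVK, phosphomevalonate kinase, was the 1 member called higher (1.12, edgeR adjusted p = 0.034), with 26.8, 25.3 and 26 CPM against 40.8, 93.1 and 41.9 CPM, and its value was 0.63 without library 32; the call was lost without library 7 (1.14), 8 (1.10) or 9 (1.12). By condition, HMGCS1 averaged 296 CPM in wt, 184 in wt -SG, 133 in cis, 57.3 in cis -SG, 74.9 in cis SSP and 58.9 in cis SSP -SG. STARD4 did not share this order, with 262 CPM in cis, 227 in cis -SG and 31.4 in cis SSP.

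Other lipid genes showed large single differences. Of 21 tested genes of fatty acid elongation and desaturation 10 were lower and 5 higher (median -0.47; 14 and 5, median -0.29, without library 32). FADS2, the delta-6 desaturase, was at 480.2, 475 and 465 CPM in wt -SG and at 45.6, 43.1 and 44.4 CPM in cis SSP -SG, with no overlap (log2 fold change -3.46 ± 0.10, edgeR adjusted p = 2.57e-06). In the list of sphingolipid and phospholipid synthesis, 6 of 29 tested genes were higher and 5 lower (13 and 11 without library 32). With all 6 libraries both shares were below those of all genes. The sphingolipid backbone is made from serine. UGCG, which makes glucosylceramide, was at 192, 184 and 195 CPM against 37.4, 33.4 and 38.8 CPM (-2.43 ± 0.11, edgeR adjusted p = 9.99e-06), and SGMS2, a sphingomyelin synthase, was higher by 2.20 (edgeR adjusted p = 0.00379).

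**Figure D3:**
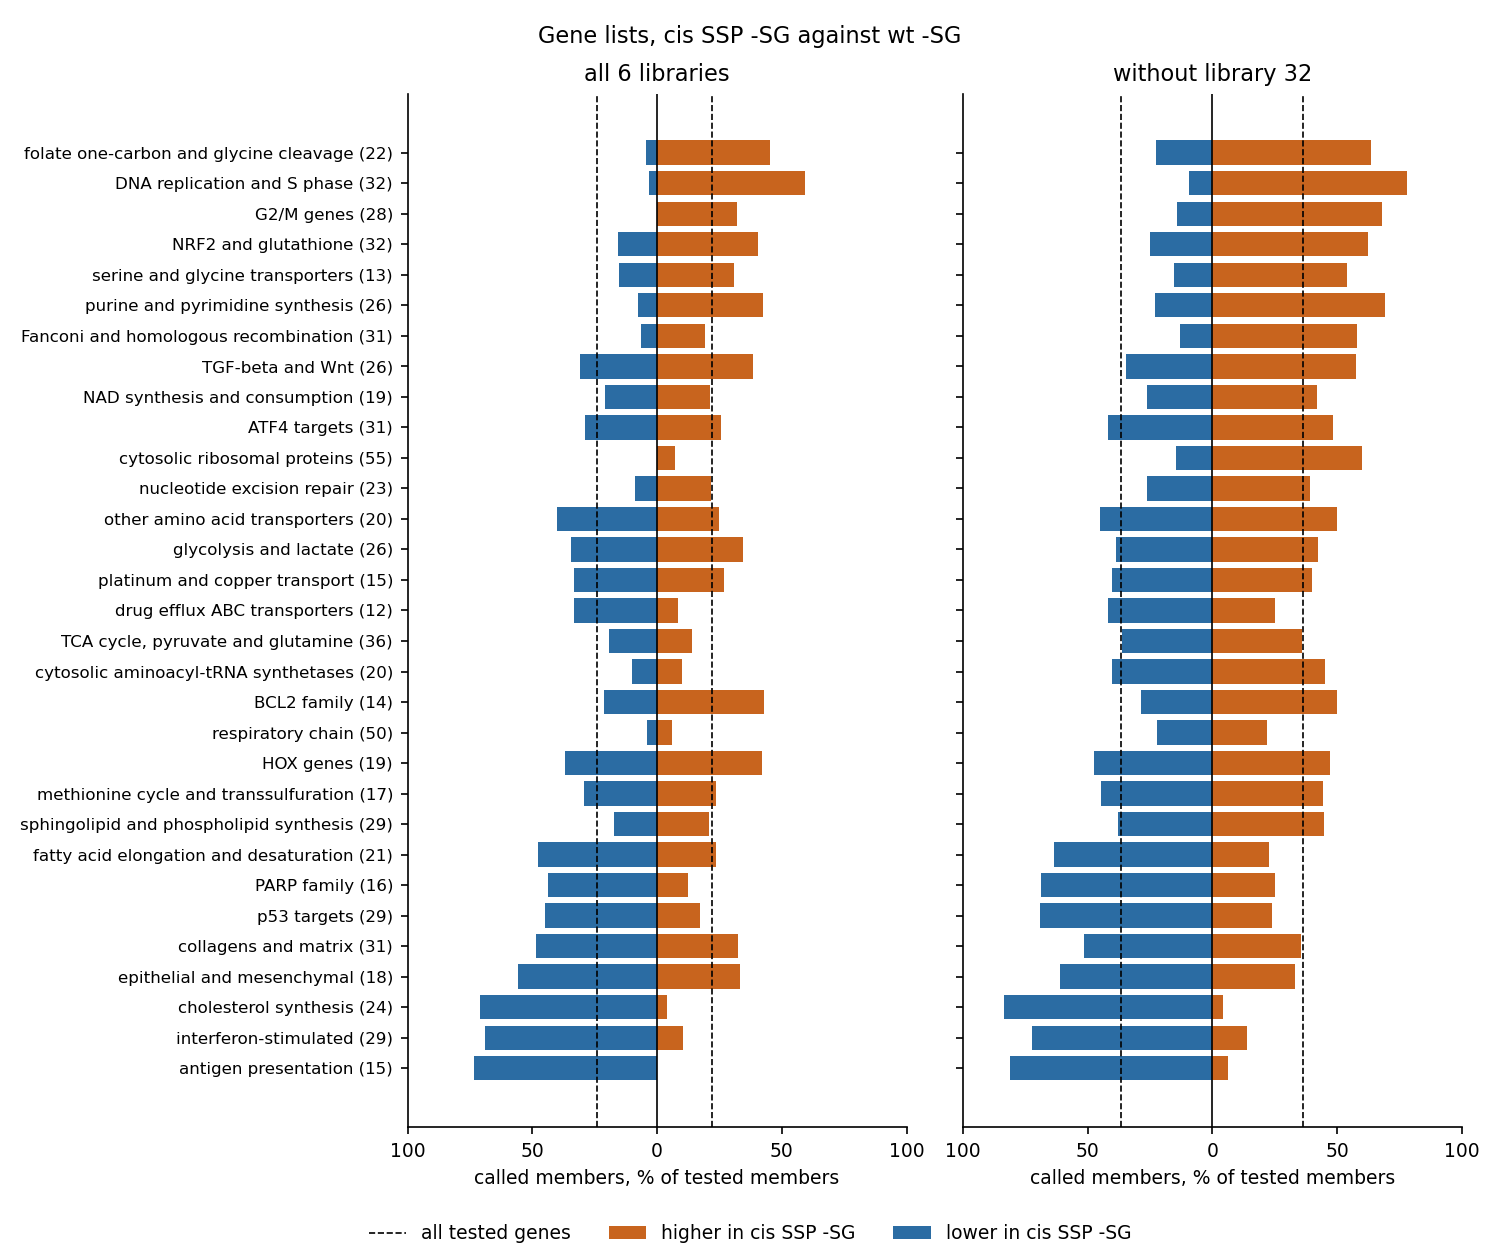
Share of tested members of 31 gene lists (number tested in brackets, with all 6 libraries) called higher (orange, to the right) or lower (blue, to the left) in cis SSP -SG, in percent, with all 6 libraries and without library 32; dashed lines are the shares over all tested genes. Cholesterol synthesis, interferon-stimulated and antigen presentation genes have the largest shares called lower, with 17 of 24, 20 of 29 and 11 of 15 members.

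Interferon-stimulated genes were mostly lower in cis SSP -SG. Of 29 tested members 20 were lower and 3 higher (median -1.38; 21 and 4, median -1.30, without library 32), and their summed level was 2427 to 2446 CPM in wt -SG and 601 to 672 CPM in cis SSP -SG. BST2, the antiviral tether tetherin (chr19:17513748-17516439), was at 235, 239 and 245 CPM in wt -SG and at 0.051, 0.0716 and 0 CPM in cis SSP -SG. From a total of 13158 and 2 counts the ratio was 6169.5 (exact 95% interval 1708 to 50949, counting error only). All wt -SG libraries lay far above all cis SSP -SG libraries.

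IFIT1, an RNA-binding antiviral protein, was at 230.3, 214 and 222 CPM in wt -SG and at 11.2, 14.4 and 10.9 CPM in cis SSP -SG (log2 fold change -4.24 ± 0.15, edgeR adjusted p = 5.09e-06). The regulator of apoptosis XAF1 was lower as well (-5.71, edgeR adjusted p = 7.14e-06). The 3 genes called higher were the membrane protein IFITM2 (2.47, edgeR adjusted p = 7.03e-05), the oligoadenylate synthetase relative OASL (2.83, 6.93e-05) and the ISG15 ligase HERC5 (1.20, 0.00514), although IFITM2 has close paralogues and its counts are uncertain. These genes differed from wt in different conditions: BST2 averaged 0.0596 CPM in cis, near its cis SSP -SG level, whereas IFIT1 averaged 219 CPM in cis, 179 in cis -SG, 15.2 in cis SSP and 12.2 in cis SSP -SG.

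Antigen presentation genes were lower in 11 of 15 tested members and higher in 0 (median -1.52; 13 and 1 of 16, median -1.59, without library 32). B2M, the invariant chain of class I molecules, was at 794, 799 and 803 CPM in wt -SG and at 160.1, 259 and 161 CPM in cis SSP -SG (log2 fold change -2.09 ± 0.21, edgeR adjusted p = 0.000399). TAP1, a subunit of the peptide transporter into the endoplasmic reticulum, was at 56.4, 58.4 and 54.0 CPM against 2.6, 2.51 and 3.73 CPM (-4.29 ± 0.18, edgeR adjusted p = 9.64e-06). The neighbouring immunoproteasome subunit PSMB9 was lower (-6.84, edgeR adjusted p = 2.24e-05; -7.88 without library 32). NLRC5, the transactivator of class I genes, was also lower (-3.50, edgeR adjusted p = 2.29e-05). HLA-B (-2.89, edgeR adjusted p = 0.000468), HLA-C (-1.28, 0.0031) and HLA-E (-1.16, 0.000239) were lower, but reads can be split among these and other similar genes, so their single values are uncertain.

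A short form of the interferon-stimulated response element, GAAA and GAAA with any 2 bases between them, was searched in the same way, and overlapping matches were joined. They stood in 993 of 27195 promoters (3.65%), in 17 of 24 interferon-stimulated genes (70.8%) and in 8 of 15 antigen presentation genes (53.3%). Of the 16 tested interferon-stimulated genes with a match 9 were lower and 1 higher, and of the 6 without a match all 6 were lower. The 250 bases before the start of 3 strongly lower genes follow, with the matches in capitals.
BST2 chr19:17405631-17405880 minus strand: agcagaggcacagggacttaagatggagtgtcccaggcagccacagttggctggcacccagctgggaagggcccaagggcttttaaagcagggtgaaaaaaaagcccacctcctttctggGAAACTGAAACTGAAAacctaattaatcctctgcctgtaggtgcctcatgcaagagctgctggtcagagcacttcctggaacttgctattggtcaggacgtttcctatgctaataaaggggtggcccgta
TAP1 chr6:32853705-32853954 minus strand: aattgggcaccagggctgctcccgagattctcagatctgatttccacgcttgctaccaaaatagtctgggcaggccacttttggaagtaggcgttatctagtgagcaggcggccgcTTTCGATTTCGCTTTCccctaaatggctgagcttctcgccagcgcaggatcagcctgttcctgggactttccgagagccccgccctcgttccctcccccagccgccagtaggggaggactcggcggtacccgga
B2M chr15:44711267-44711516 plus strand: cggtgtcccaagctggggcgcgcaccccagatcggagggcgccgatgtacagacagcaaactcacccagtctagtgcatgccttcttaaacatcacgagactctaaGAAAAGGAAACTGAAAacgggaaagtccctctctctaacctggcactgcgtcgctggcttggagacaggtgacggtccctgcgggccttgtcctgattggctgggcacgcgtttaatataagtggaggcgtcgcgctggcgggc
In each of these 3 promoters overlapping matches form a longer run, on the opposite strand in TAP1. Such runs were not particular to lower genes. They also stood in HERC5, which was higher (1.20), and in ISG15 (0.04) and CD274 (0.22), which were not called with all 6 libraries. ISG15 was lower without library 32 (-0.62). IFIH1 (-1.38) and TAPBP (-1.27), both lower, held such runs too. The sterol-related letters TCACNCCAC, tried likewise, stood in 313 of 27195 promoters (1.15%) and in 1 of 19 cholesterol synthesis genes (5.26%).

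**Figure D4:**
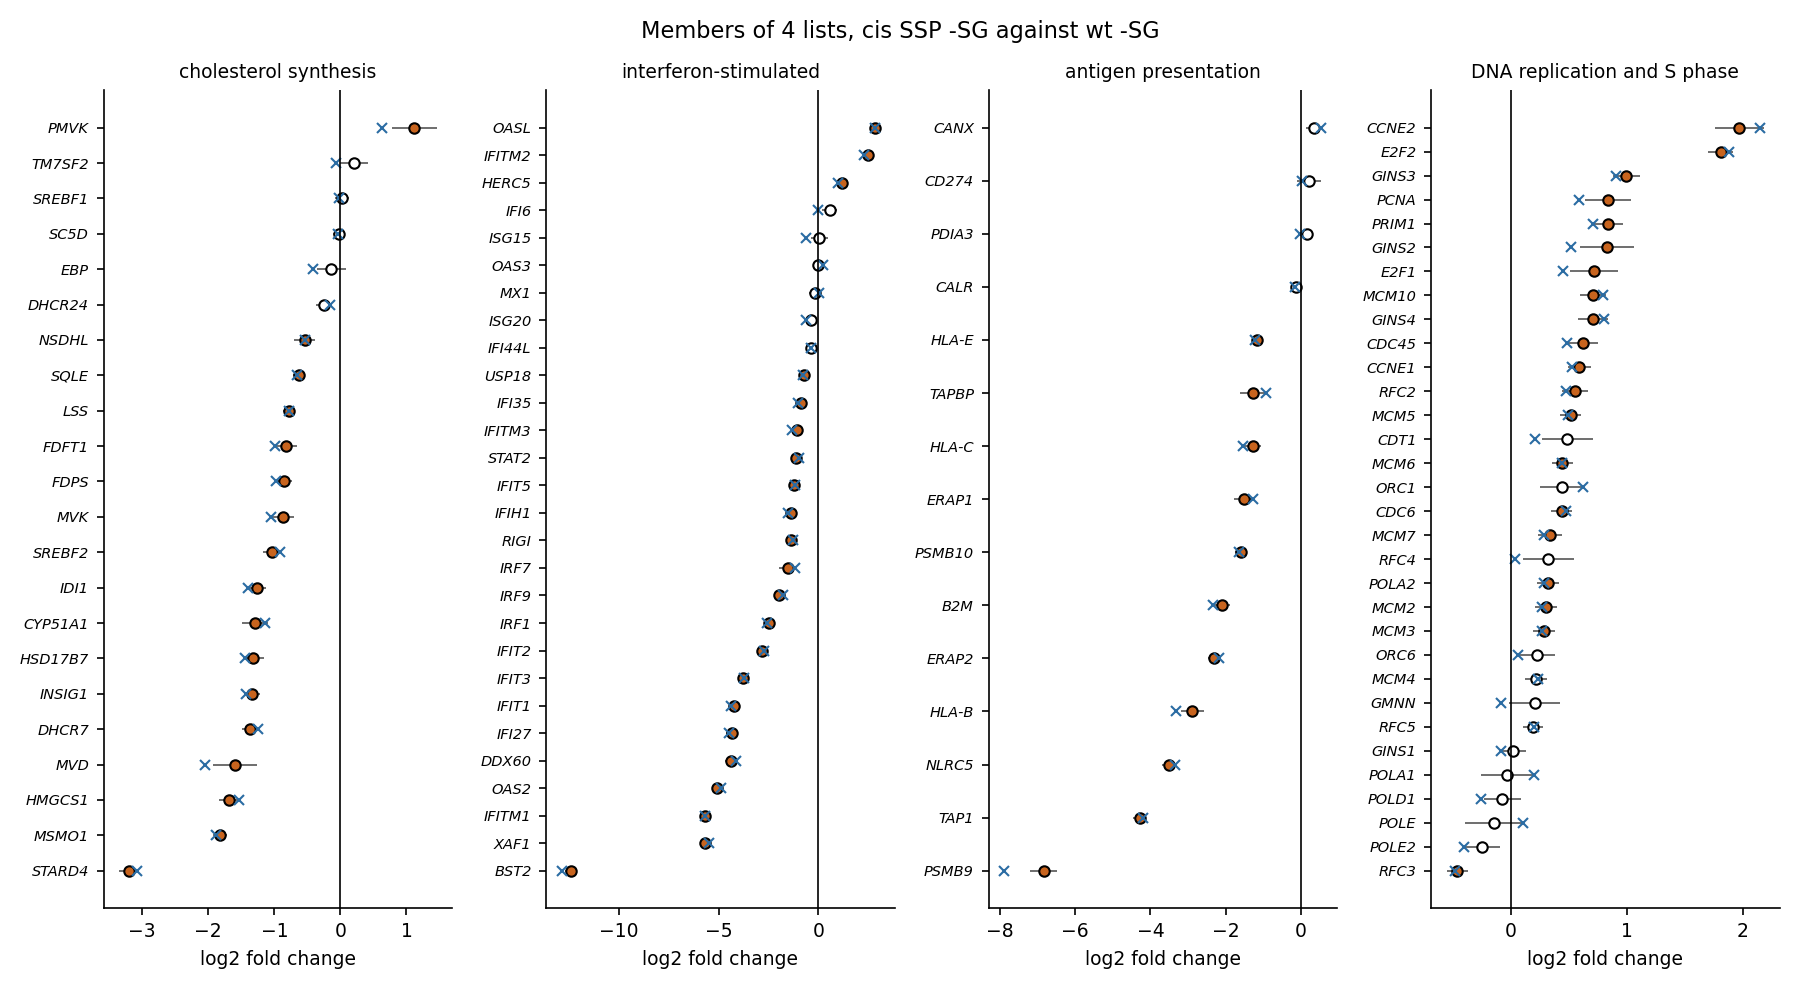
Log2 fold change, cis SSP -SG against wt -SG, of tested members of 4 lists (points with SE bars, filled where the edgeR adjusted p is under 0.05; crosses are values without library 32; the horizontal scale differs between panels). STARD4 at -3.20, BST2 at -12.39 and PSMB9 at -6.84 are the lowest of the cholesterol, interferon and antigen panels, and CCNE2 at 1.97 is the highest of the replication panel; the fitted value of BST2 is not a bound, since cis SSP -SG held only 2 counts.

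Genes of the NRF2 and glutathione list, which handle oxidants and drugs, were higher in 13 and lower in 5 of 32 tested members (median 0.38; 20 and 8, median 0.27, without library 32). OSGIN1, an oxidative stress-induced growth inhibitor, was at 2.06, 2.16 and 1.74 CPM in wt -SG and at 13.4, 21.6 and 14.8 CPM in cis SSP -SG (log2 fold change 3.01 ± 0.23, edgeR adjusted p = 0.000116). GCLC, the catalytic subunit of the first step of glutathione synthesis, was higher by 0.92 (edgeR adjusted p = 0.000303), while its modifier GCLM was lower (-0.60, edgeR adjusted p = 0.00342). The microsomal glutathione transferase MGST1 was at 18.3, 19.9 and 18.3 CPM against 1.02, 0.573 and 1.0 CPM (-4.45 ± 0.20, edgeR adjusted p = 1.2e-05). The metal-binding metallothionein MT2A was at 1.03, 1.58 and 1.61 CPM against 18, 42.8 and 17.9 CPM (4.18 ± 0.46, edgeR adjusted p = 0.000564; 3.65 without library 32), with library 32 the highest; metallothionein genes are similar and their counts uncertain.

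Genes of platinum and copper transport were mixed, with 4 higher and 5 lower of 15 (6 and 6 without library 32). Over all genes 22.2% were higher and 23.9% lower (36.4% and 36.6% without library 32), so these counts do not set the list apart. ABCC2, an export pump for conjugates and platinum, was at 1.28, 1.26 and 1.03 CPM in wt -SG and at 15.2, 6.66 and 15.7 CPM in cis SSP -SG (log2 fold change 3.35 ± 0.39, edgeR adjusted p = 0.000714; 3.64 without library 32). By condition it averaged 0.82 CPM in cis and 14.6 in cis SSP. LRRC8C, LRRC8B and LRRC8D, subunits of the volume-regulated anion channel, were lower (log2 fold change -3.09, -2.04 and -1.25, edgeR adjusted p = 8.22e-05, 0.000474 and 0.000424). The copper pump ATP7B was lower too (-1.70, edgeR adjusted p = 0.00288). The 3 LRRC8 genes lie within 1 stretch of chromosome 1 and ATP7B on chromosome 13, the regions with low medians described further on.

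PARP1, the main poly(ADP-ribose) polymerase, was at 488, 496 and 494 CPM in wt -SG and at 627, 587 and 624 CPM in cis SSP -SG. The groups did not overlap, but the difference did not pass in the main fit (log2 fold change 0.27 ± 0.10, edgeR adjusted p = 0.0595). It passed without library 32 (0.31, edgeR adjusted p = 7.23e-09). With library 32 kept, it passed once the transcript length trend was removed (0.47, edgeR adjusted p = 0.00806). It also passed in a single fit over the 36 libraries (0.32, edgeR adjusted p = 6.56e-07) and with limma voomWithQualityWeights (0.30, adjusted p = 2.14e-06). PARP1 averaged 617 CPM in wt, 637 in cis and 635 in cis SSP, against 493 in wt -SG, 387 in cis -SG and 613 in cis SSP -SG. Its level was thus lower in the medium without serine and glycine in wt and cis cells, and about the same in both media in cis SSP cells, a pattern for which the interaction did not pass (0.25, edgeR adjusted p = 0.417; 0.25, 6.53e-07 without libraries 25 and 32). Of 16 tested PARP family genes 7 were lower and 2 higher (median -0.51; 11 and 4, median -0.33, without library 32). TIPARP was at 37.9, 38.2 and 38.1 CPM against 6.17, 5.44 and 6.13 CPM (-2.73 ± 0.11, edgeR adjusted p = 6.21e-06), and PARP9, itself interferon-stimulated, was lower (-2.32, edgeR adjusted p = 2.48e-05). PARP3 was higher (1.11, edgeR adjusted p = 0.000154).

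Of 19 tested genes of NAD synthesis and consumption 4 were higher and 4 lower (8 and 5 without library 32). With all 6 libraries these shares were near those of all genes. QPRT, which makes NAD precursors from tryptophan breakdown, was at 95.5, 98.3 and 101 CPM in wt -SG and at 1.33, 2.15 and 1.23 CPM in cis SSP -SG (log2 fold change -6.04 ± 0.21, edgeR adjusted p = 5.37e-06). NAMPT, the salvage enzyme, was lower (-1.02, edgeR adjusted p = 0.00021). TDO2, tryptophan dioxygenase, had 0 counts in wt -SG and 27.6, 32.2 and 28.9 CPM in cis SSP -SG, at least 536-fold higher. The NAD-dependent deacetylase SIRT1 was at 101, 108 and 104 CPM against 427, 303 and 424 CPM (1.84 ± 0.16, edgeR adjusted p = 0.00022). Separation of the groups was a condition for naming these 4 genes.

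Glucose metabolism genes were split, with 9 of 26 glycolysis and lactate genes higher and 9 lower (11 and 10 without library 32). Of 36 genes of the TCA cycle, pyruvate and glutamine 5 were higher and 7 lower (13 and 13 without library 32). For this second list both shares with all 6 libraries were below those of all genes. PFKP, the platelet-type phosphofructokinase, was at 41.2, 43.7 and 43.1 CPM in wt -SG and at 201, 173 and 202 CPM in cis SSP -SG (log2 fold change 2.13 ± 0.11, edgeR adjusted p = 1.92e-05). GPD2, which passes cytosolic reducing equivalents to the respiratory chain, was at 90.7, 94.2 and 87.9 CPM against 0.765, 0.215 and 0.557 CPM (-7.43 ± 0.29, edgeR adjusted p = 7.38e-06). Malic enzyme ME1, a source of NADPH, was at 45.5, 45.4 and 44 CPM against 0 in each cis SSP -SG library, at least 773-fold lower. ME1 was also at 0 in every library of cis, cis -SG and cis SSP, whereas GPD2 averaged 29.3 CPM in cis and 1.11 in cis SSP.

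Matrix and lineage genes included very large differences in both directions. Of 31 tested collagens and matrix genes 10 were higher and 15 lower (median -0.59; 11 and 16, median -0.40, without library 32), and of 18 epithelial and mesenchymal genes 6 were higher and 10 lower (median -0.83; 6 and 11, median -0.76, without library 32). COL4A1 and COL4A2, neighbouring basement membrane genes on chromosome 13, were high in cis SSP -SG: COL4A1 was at 0 in wt -SG and at 81.1, 47.1 and 81.1 CPM in cis SSP -SG, at least 1316-fold higher, and COL4A2 was at 0.196, 0 and 0.257 CPM against 101, 74.3 and 108 CPM (edgeR adjusted p = 2.04e-05). Some collagens of fibrils and microfilaments went the other way. COL6A3 was at 612, 713 and 608 CPM against 0.204, 0.215 and 0.279 CPM (log2 fold change -11.43, edgeR adjusted p = 1.02e-06), and COL1A2 at 419, 425 and 413 CPM against 0.255, 0.501 and 0.223 CPM (-10.40, edgeR adjusted p = 1.73e-06).

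The mesenchymal transcription factor TWIST1 had 9022 counts in wt -SG and 1 in cis SSP -SG, a ratio of 8460.5 (exact 95% interval 1518 to 334207, counting error only). N-cadherin, CDH2, was instead higher, with 234, 244 and 243 CPM against 1399, 953 and 1403 CPM (log2 fold change 2.34 ± 0.18, edgeR adjusted p = 0.000122), and the keratin KRT18 was higher by 4.83 (edgeR adjusted p = 2.6e-05). The kidney and Müllerian factor PAX2 was at 179.7, 204 and 198 CPM against 0.051, 0.0716 and 0.111 CPM, a ratio of 2489 (exact 95% interval 972 to 9137). The angiopoietin receptor TEK, the only endothelial marker tested, had 1 count in wt -SG and 564 in cis SSP -SG (ratio 601, exact 95% interval 107.5 to 23797), and the summed endothelial list was at 0.0526 to 0.196 CPM against 9.95 to 11.8 CPM, nearly all of it TEK, since VWF, CDH5 and KDR averaged at most 0.115 CPM. Of 7 fibroblast markers 4 were higher and 3 lower, and their summed level was 1952 to 1986 CPM in wt -SG and 2539 to 3189 CPM in cis SSP -SG. COL3A1, a fibrillar collagen, made up most of it, with means of 1355 and 2816 CPM. The Wnt inhibitor DKK1 was at 262, 253 and 264 CPM against 0.357, 0.43 and 0.111 CPM (-9.80, edgeR adjusted p = 3.15e-06), and INHBA, the activin A subunit, was at 0 against 178, 97.1 and 168 CPM, at least 2793-fold higher.

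HOX genes, which set position along the body axis, were split. Of 19 tested HOX genes 8 were higher and 7 lower (9 and 9 without library 32). HOXD9 and HOXD10 were at 0 in cis SSP -SG, at least 326-fold and 177-fold lower, and HOXC13 had 3 counts in wt -SG and 622 in cis SSP -SG, a ratio of 221 (exact 95% interval 75.3 to 1075). The homeobox gene BARX2 was at 0 in wt -SG and at 377, 465 and 379.9 CPM in cis SSP -SG, at least 7362-fold higher, and the transmembrane protein TMEFF2 was at 0.0982, 0.21 and 0.129 CPM against 949, 1084 and 972 CPM (log2 fold change 12.64, edgeR adjusted p = 1.02e-06). In the other direction ARHGAP28, a GTPase-activating protein, and the homeobox gene DLX5 were at 0 in cis SSP -SG, at least 8152-fold and 4378-fold lower, and the ephrin receptor EPHA7 was at least 3528-fold lower. The fatty acid receptor CD36 was at 0 in wt -SG and at least 2954-fold higher in cis SSP -SG.

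These genes fell into different patterns over the 6 conditions. INHBA averaged 192 CPM and CD36 129 CPM in cis, near their levels of 143 and 122 CPM in cis SSP, and DLX5 and ARHGAP28 averaged 0.0556 and 0.0628 CPM in cis, so their difference from wt was already present in the resistant line. BARX2 averaged 1.05 CPM in cis, 23.1 in cis -SG, 396 in cis SSP and 407 in cis SSP -SG. TMEFF2 had the same order, from 18.8 through 61 to 892 and 1002 CPM, as did CDH2 (12.7, 103, 1044 and 1252 CPM). COL4A1 went from 0.571 in cis through 4.21 in cis -SG to 74.7 CPM in cis SSP, but was slightly lower, at 69.8, in cis SSP -SG. For BARX2, CDH2 and COL4A1 the means in cis SSP and cis SSP -SG differed by less than the SD within either condition. These SDs were 38.6 and 49.8, 227 and 258, and 22.5 and 19.7 CPM. The cis SSP -SG SDs came largely from library 32. In libraries 31, 32 and 33 CDH2 was at 1399, 953 and 1403 CPM and COL4A1 at 81.1, 47.1 and 81.1 CPM. BARX2 was at 377, 465 and 379.9 CPM in the same order. The cis SSP SDs include library 25, which also stood apart. Such SDs cannot show whether the medium changed these genes.

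Genes lying side by side differed together in some regions. Median log2 fold changes per chromosome lay between -0.08 and 0.14 except on chromosome 13, where the median of 225 tested genes was -0.98 (-0.92 without library 32), with 14 genes higher and 161 lower. Between 75 and 110 Mb of chromosome 1 (GRCh37), 132 tested genes had a median of -1.18 (-1.11 without library 32), with 7 higher and 92 lower, whereas the other 1323 genes of that chromosome had a median of 0.02. The lowest window of 31 neighbouring genes ran from KYAT3 to FRRS1 (gene starts 89401456 to 100169526), with a median of -1.65 and 0 genes above zero. The highest was on chromosome 8, from MRPS28 to TMEM67 (gene starts 80830952 to 94767072), with a median of 0.99 (0.96 without library 32) and 21 of 31 genes above zero, and CHMP4C lies within it. Windows on chromosome 14 (PSMB5 to DHRS1) and chromosome 17 (SP2 to PDK2) followed, at 0.78 and 0.68.

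The 2 low regions, chromosome 13 and the stretch of chromosome 1, were also compared between other pairs of conditions. The median log2 ratio of mean levels was -0.92 on chromosome 13 and -1.02 on the stretch of chromosome 1 for cis SSP over wt, -0.78 and -0.94 for cis -SG over wt -SG, and -0.04 and 0 for cis SSP -SG over cis -SG. These ratios share libraries and are given as values. A median near -1 corresponds to a ratio of about 0.5 in RNA per gene; the number of DNA copies was not measured in these files. Genes named above from these regions include COL4A1 and COL4A2, which ran against the chromosome 13 median, and RFC3, ATP7B, LRRC8B, LRRC8C and LRRC8D, which ran with their region.

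**Figure D5:**
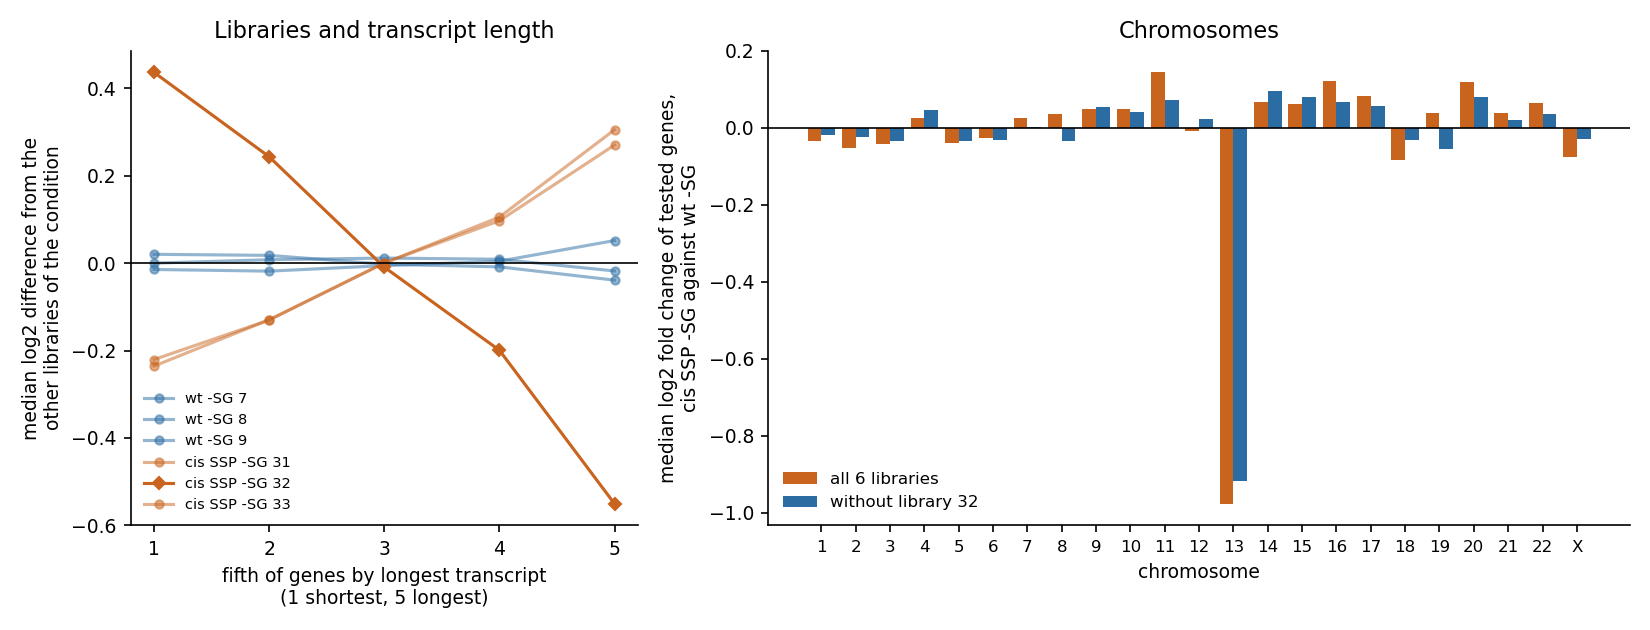
Left, median log2 difference of each library from the other libraries of its condition (vertical axis) over 5 nearly equal groups of genes by length of the longest transcript, wt -SG blue and cis SSP -SG orange, with library 32 as diamonds going from 0.44 to -0.55; right, median log2 fold change, cis SSP -SG against wt -SG, per chromosome with all 6 libraries and without library 32. Chromosome 13 stands at -0.98 and -0.92.

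Genes of the ribosome and respiratory chain, which have short transcripts, show what library 32 contributes. Ribosomal protein genes had a median log2 fold change of 0.52 with 4 of 55 called with all libraries, and 0.12 with 33 higher and 8 lower without library 32. Respiratory chain genes had 0.35 with 5 of 50 called (3 higher and 2 lower), and -0.02 with 11 higher and 11 lower without it. Once a trend with transcript length had been subtracted, the shortest group of genes had a median of 0.02 and the longest one of 0.03, against 0.25 and -0.24 before. The trend was fitted to the same lengths that define the groups, so the later medians follow from the subtraction and are no separate evidence.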

How the data were processed

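RNA-seq was made from A2780 cells in 12 conditions of 3 libraries, and the 6 libraries compared are those labelled wt -SG and cis SSP -SG. The authors aligned reads with STAR and counted them per gene with HTSeq on GENCODE annotation of GRCh37, and they deposited 1 table of raw counts with 57820 gene rows. Strand setting and treatment of multiply mapped reads are not given in the sources used here. The 3 rows that name no gene were left out (4.2 to 7.9% of counts had no feature in these 6 libraries), and symbols came from the annotation tables supplied (55538 rows).

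Counts were filtered by filterByExpr, scaled by TMM and tested with edgeR 4.0.16 (quasi-likelihood, Benjamini-Hochberg adjusted p under 0.05 called), with R 4.3.3. The SE is the absolute log2 fold change over the square root of F. CPM was TMM-scaled over the 36 libraries. The script was tested on simulated data.

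The comparison, gene lists and named genes were chosen with earlier results of these data known. Genes named were 7 always (PHGDH, PSAT1, PSPH, SLC1A4, SLC1A5, ATF4 and PARP1); from each of 39 lists at most 2 per direction with the largest called change, averaging 50 counts or more, with the groups not overlapping; 8 per direction from all genes; and 6 per direction from genes near absent in 1 condition. Where non-overlap of the groups was required, it was a condition of naming and not a result. Other list members were named for their role after their values were seen, and the interferon and sterol motifs were chosen likewise. Of 938 list genes 3 were not matched, and some list members are not reported here by name or plotted as members. Intervals and floors cover counting error only, and depth limits what a count of 0 can show. Alternatives were DESeq2 1.42.0, limma 3.58.1 voomWithQualityWeights, other filters and scalings, a length trend, a fit over all libraries and leaving out libraries.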

Additional observations from a re-analysis of the deposited data

Results flagged for a closer look

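The difference between the cis SSP and wt lines depended on the medium for 102 of 15202 genes by edgeR's test of the interaction of line and medium. Among 12 genes chosen for this test by name, PSAT1 (1.01 on the log2 scale), MTHFD2 (0.61) and CHAC1 (1.60) passed: each changed more on withdrawal of serine and glycine in cis SSP cells than in wt cells. The wt, wt -SG, cis SSP and cis SSP -SG means of PSAT1 were 905, 1069, 646 and 1554 CPM. The test for a single outlying sample needs groups of at least 4 and was not run on groups of 3. By other measures library 32 stood apart, with a voom sample weight of 0.0362 against 1.49 to 2.28 in the other 5 libraries, and a mean chi-square per gene of 111 and 99.4 against libraries 31 and 33, which differed from each other by 2.57.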

How the results depend on the processing

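Against the 6737 genes called between cis SSP -SG and wt -SG, limma voomWithQualityWeights called 10834, a single fit over the 36 libraries 10566, and a requirement of a log2 fold change of at least 1 left 3717, or 3914 without library 32, an alternative chosen after seeing the data. Leaving out 1 library at a time gave 4837 to 10974, the highest without library 32, which alone moved the count by over 1.5 times. For the interaction of line and medium (102 genes), DESeq2 called 557, testing all genes unfiltered 22, a minimum of 10 counts per library 162, removal of the trend over transcript length 440, voomWithQualityWeights 4005, omission of libraries 25 and 32 together 4213, and an absolute value of at least 1 left 43. Leaving out 1 library gave 12 to 198, and each of the 12 libraries moved this count by over 1.5 times. The causes of these shifts were not tested.

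Of 142 named genes only PHGDH, which was not called, changed sign, from 0.18 to -0.01 both without library 32 and with voomWithQualityWeights. Among these 142, which were named by rule, ATF4 and PARP1 became called without library 32 and 0 were lost. Other list members named above also became called without it, among them SHMT2 and ASNS. Without wt -SG library 7, 8 or 9 there were 21, 19 and 20 lost calls, without library 31 there were 6 and without library 33 there were 8. No paired analysis was possible because the labels give no replicate numbers within a condition. Depth limits the test, since genes under the count filter could not be tested.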
